A study of Rattus with 6 samples.

Results

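Collagen genes were read out of a transcriptome experiment on H9C2 cells, a line derived from embryonic rat heart, in which the RNA-binding protein RBM25 was overexpressed. A collagen gene was any protein-coding gene whose symbol begins with Col, a number, the letter a and a second number. This gave 39 genes among the 20742 listed in the count table, 11 fibrillar, 6 of type IV and 22 of other types. The tested cells carried a plasmid for RBM25 overexpression (3 libraries) and the comparison cells a control plasmid (3 libraries). All libraries came from the same cell line. The sources used here do not give whether the plasmids were carried stably, when RNA was taken, or whether the libraries of a group came from separate cultures. A p-value therefore reflects library-to-library spread only, and part of that spread may be technical. The design asks which genes change when RBM25 is raised.

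Collagens are extracellular proteins built of 3 alpha chains wound into a triple helix. Fibrillar collagens assemble into the tensile fibres of heart, skin and bone, type IV collagens form the sheet-like network of basement membranes, and the remaining types decorate fibrils, form beaded filaments or span the plasma membrane. In the heart, fibrillar collagens I and III are laid down mainly by fibroblasts, while muscle cells are wrapped in a type IV network.

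Libraries held 27661354 to 33130256 counted reads with the RBM25 plasmid and 25543849 to 30958692 with the control plasmid. Rbm25 itself had 56.3, 55.9 and 60.1 CPM (counts scaled to library size with edgeR's TMM factors) in RBM25 libraries and 49.2, 44.5 and 45.7 CPM in control libraries, so the groups did not overlap and the rise was 1.24-fold. Markers of the line were mixed. The myogenic factor Myod1 averaged 29.2 FPKM (fragments per kilobase of gene, scaled to sequencing depth, as deposited by the authors) in RBM25 libraries and 28.7 FPKM in control libraries. Of the other skeletal muscle markers, Myog averaged 11.7 and 13.7 FPKM and Des 4.17 and 3.94 FPKM. Ckm had only 16 and 25 summed reads and Myf6 10 and 6. Cardiac troponin T (Tnnt2) averaged 71.0 and 69.1 FPKM. The cardiac factors Nkx2-5 and Gata4 were lower, Nkx2-5 at 8.54 and 8.59 FPKM and Gata4 at 3.04 and 3.02 FPKM. Defining genes of mature heart muscle were near 0. Ryr2 had 0 reads in RBM25 libraries and 1 in control libraries, Myh7 3 and 1, Tnni3 3 and 4, and Actn2 6 and 12. Myh6 had 45 and 25 reads, or 0.0767 and 0.0433 FPKM, and its groups did not overlap (edgeR adjusted p = 0.529). Of 6 listed fibroblast markers, 4 were in the table and were unequal in level. Pdgfra had 2 and 3 reads, whereas Thy1 averaged 221 and 223 FPKM, S100a4 695 and 667 FPKM, and Vim 2108 and 2111 FPKM. In RBM25 replicate 3, counts departed more from those of the other replicates of its group (chi-square per degree of freedom 5.88 and 4.55) than in any other pair of replicates (3.07 to 3.32).

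Type I collagen dominated the collagen transcripts. All collagens together took 2.71%, 2.85% and 2.88% of the counted reads in RBM25 libraries, and 2.68%, 2.84% and 2.93% in control libraries. The groups overlapped, and the lowest library in each was replicate 1. In bulk RNA, the share of cells that make collagen and the collagen RNA per cell cannot be told apart. Both type I chains were among the most abundant transcripts of the cell. Col1a1, the alpha 1 chain, ranked 30th by mean FPKM in control libraries and Col1a2, the alpha 2 chain, ranked 34th. The pair made up 82.9 ± 0.385% of the summed collagen FPKM in RBM25 libraries and 83.1 ± 0.463% in control libraries (SD, n = 3).

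By class, the fibrillar genes summed to 4481 ± 155 FPKM in RBM25 libraries and 4506 ± 213 FPKM in control libraries, a ratio of 0.994. The type IV genes summed to 336 ± 3.70 FPKM and 337 ± 7.01 FPKM, a ratio of 0.999. The other types summed to 47.6 ± 0.888 FPKM and 47.4 ± 0.914 FPKM, a ratio of 1.00 (SD, n = 3 in each case). Fibrillar genes thus held 92.1% of collagen FPKM in both groups, type IV genes 6.92% and 6.89%, and the other types 0.980% and 0.971%. For each class the 2 means lay closer together than 1 SD of either group.

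**Figure D1:**
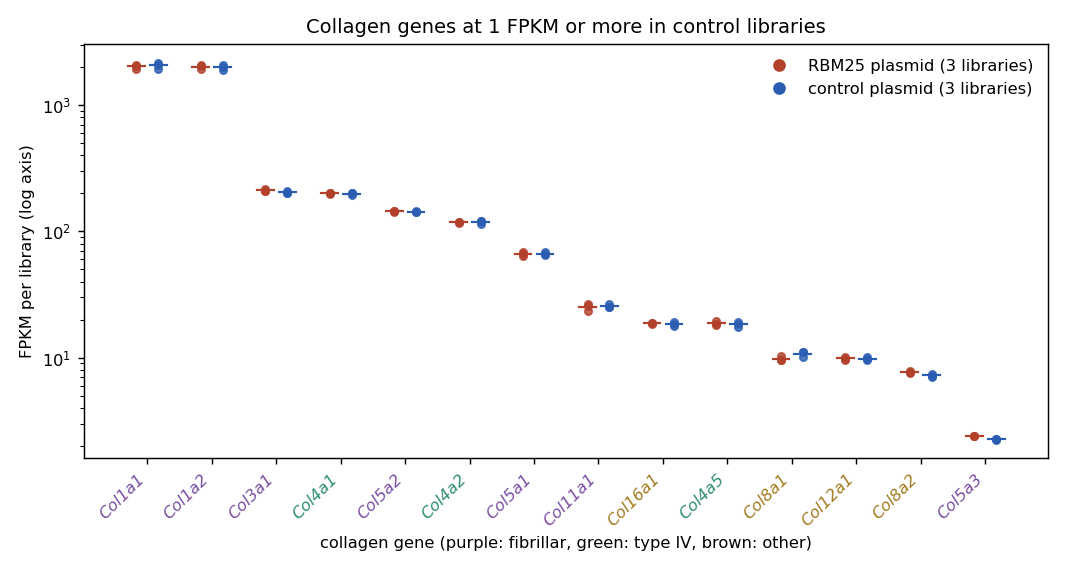
FPKM of the 14 collagen genes that averaged at least 1 FPKM in control libraries, on a log axis, ordered by level, with RBM25 libraries in red to the left of control libraries in blue and a line at each mean. Both type I chains lie between 1905 and 2159 FPKM, far above the next gene, Col3a1, and the points of the groups lie close together for every gene.

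The 14 genes with at least 1 FPKM in control libraries were 7 fibrillar, 3 type IV and 4 other collagens. Their order from the top was Col1a1, Col1a2, Col3a1, Col4a1, Col5a2, Col4a2, Col5a1, Col11a1, Col16a1, Col4a5, Col8a1, Col12a1, Col8a2 and Col5a3. Neighbours in that order did not overlap between control libraries except Col1a1 with Col1a2, Col3a1 with Col4a1, Col16a1 with Col4a5, and Col8a1 with Col12a1. In RBM25 libraries the order of the means was the same except that Col12a1 stood above Col8a1, whose libraries overlapped, and Col3a1 lay wholly above Col4a1.

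None of the 24 collagen genes with enough reads to be tested was called changed by RBM25 overexpression. The call was an adjusted p under 0.05 by edgeR's quasi-likelihood test with Benjamini-Hochberg adjustment over all 12882 tested genes, of which 52, or 0.404%, were called. A count of 0 among 24 members is therefore near that background. Without RBM25 replicate 3, 352 of 13098 genes were called, among them 1 collagen, Col2a1. At an unadjusted p under 0.05 there were 2 collagens (Col8a1 and Col2a1), or 8.33%, against 11.2% of all tested genes. DESeq2 called 40 genes higher and 8 lower of 15112 tested, with 0 collagens among them. Limma-trend on FPKM values called 2 of 12882 genes at a pseudocount of 0.1 and 1 at a pseudocount of 1, again with 0 collagens. With so few calls over all genes, these counts of 0 say little about the collagens. Groups did not overlap in CPM for 4 of the 24 (16.7%), against 16.2% of all tested genes. The median log2 fold change was 0.024 over the 24 collagens and -0.0021 over all tested genes, and 17 of 24 collagens had a positive value, against 48.8% of all tested genes. Those 17 became 11 without control replicate 1, with a median of -0.0045 over the collagens, and 20 without control replicate 3, with a median of 0.056. Each fold change sets the RBM25 plasmid over the control plasmid and is given with its standard error (SE).

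Intervals were wider for the low collagens. For all 14 genes at 1 FPKM or more, the 95% interval of the fold change lay within 1.2-fold in either direction, and for 11 of them within 1.1-fold. Of the 10 tested genes below 1 FPKM, 0 lay within 1.2-fold, 2 within 1.5-fold and 7 within 2-fold. A change of 1.2-fold in at least 1 direction thus lay inside the interval of each of these 10 genes. Counting error and the spread between libraries were not separated here.

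**Figure D2:**
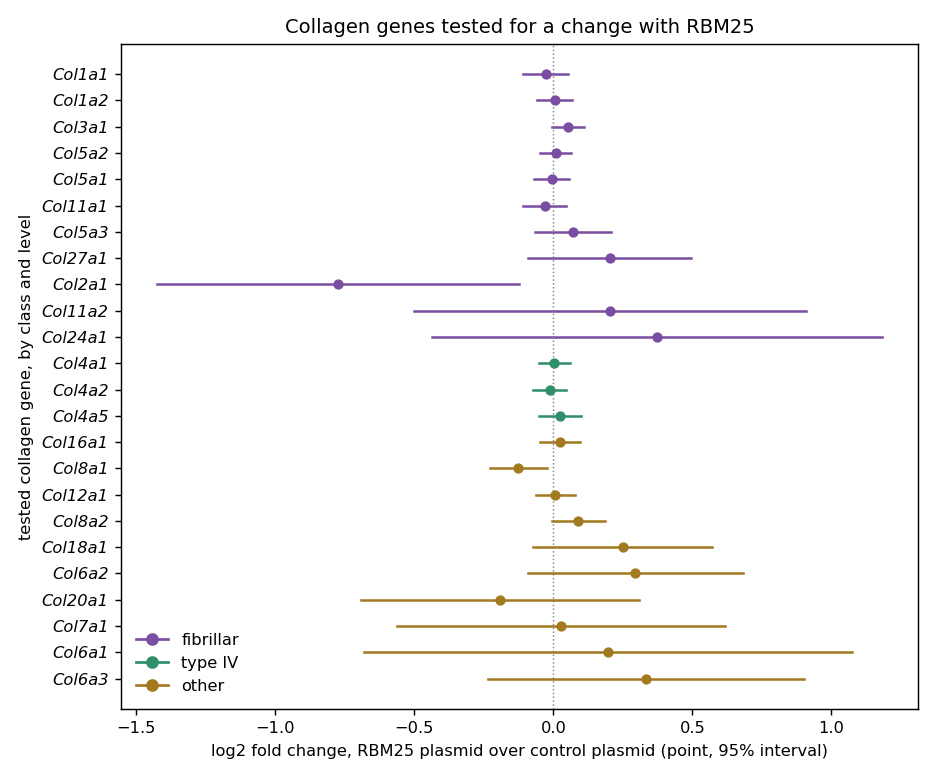
Log2 fold change (RBM25 plasmid over control plasmid) of the 24 tested collagen genes with its 95% interval, by class and, within a class, by level. Intervals are narrow around 0 for the abundant genes at the top of each class and wide for the low ones, and those of Col2a1 and Col8a1 alone leave out 0.

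Among the fibrillar collagens, Col1a1 had 1937, 2055 and 2073 FPKM in RBM25 libraries, against 1937, 2089 and 2159 FPKM in control libraries. Its partner chain Col1a2 had 1928, 2040 and 2061 FPKM in RBM25 libraries, and 1905, 2018 and 2087 FPKM in control libraries. For both chains the groups overlapped, and control replicate 3 lay above every RBM25 library. On the log2 scale the fold change was -0.029 ± 0.037 for Col1a1 (SE; edgeR adjusted p = 0.825), a 0.980-fold level with a 95% interval of 0.927 to 1.04. For Col1a2 it was 0.0042 ± 0.030 (SE; edgeR adjusted p = 0.976), with an interval of 0.960 to 1.05. In control libraries the coefficient of variation was 5.43% for Col1a1, 4.52% for Col1a2 and 1.30% for Col5a2.

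Col3a1, the homotrimeric collagen of elastic tissues that accompanies type I in heart muscle, had 207, 207 and 218 FPKM in RBM25 libraries and 200, 201 and 209 FPKM in control libraries. RBM25 replicate 3 was highest, and control replicate 3 lay above both other RBM25 libraries. Its log2 fold change, 0.052 ± 0.028 (SE), did not pass (edgeR adjusted p = 0.511) and stayed between 0.032 and 0.072 under all 14 alternative settings.

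The type V and XI chains nucleate and limit the width of type I and type II fibrils. Col5a2 had 142, 144 and 146 FPKM in RBM25 libraries and 142, 142 and 145 FPKM in control libraries, and its log2 fold change, 0.0090 ± 0.027 (SE), did not pass (edgeR adjusted p = 0.937). Col5a1 averaged 66.4 ± 2.46 and 66.7 ± 1.48 FPKM, and Col11a1 25.1 ± 1.55 and 25.6 ± 0.860 FPKM (SD, n = 3, RBM25 then control libraries). The groups overlapped for each of these 3 genes. Col5a3, a minor type V chain, was lower and tightly measured, at 2.39, 2.38 and 2.38 FPKM in RBM25 libraries and 2.25, 2.28 and 2.29 FPKM in control libraries. All its RBM25 libraries stood above all control libraries, yet the difference was small (log2 fold change 0.070 ± 0.066 SE; edgeR adjusted p = 0.747).

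Col2a1, the collagen of cartilage fibrils, had 19, 23 and 40 reads in RBM25 libraries and 26, 43 and 62 reads in control libraries, or 0.911 ± 0.456 and 1.51 ± 0.492 CPM (SD, n = 3). RBM25 replicate 3 lay between the control libraries, and the lowest control library lay below it. The log2 fold change of -0.77 ± 0.31 (SE) did not pass (edgeR adjusted p = 0.337). Without RBM25 replicate 3 it passed, with a log2 fold change of -1.23 and an edgeR adjusted p of 0.0117. Under the other 13 alternatives it did not, with values from -0.97 to -0.13. Summed cartilage markers overlapped between the groups. The 5 listed ones found in the table summed to 14.1 to 16.1 CPM in RBM25 libraries and 12.2 to 15.4 CPM in control libraries. Sox9 made up most of that sum, averaging 12.2 CPM in RBM25 libraries and 11.2 CPM in control libraries. Matn3 averaged 2.42 and 2.24 CPM and Comp 0.419 and 0.558 CPM, while Matn1 had 0 and 3 reads and Hapln1 5 and 4. The remaining fibrillar genes Col27a1, Col24a1 and Col11a2 averaged 0.507, 0.0600 and 0.0600 FPKM in RBM25 libraries and 0.433, 0.0467 and 0.0533 FPKM in control libraries, and none passed.

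Type IV genes were expressed as an unequal set. Col4a1 had 202, 201 and 196 FPKM in RBM25 libraries and 195, 201 and 201 FPKM in control libraries. Col4a2, whose chain joins pairs of Col4a1 chains in the ubiquitous basement membrane network, had 119, 119 and 116 FPKM in RBM25 libraries and 115, 120 and 121 FPKM in control libraries. Both genes overlapped between the groups. Their log2 fold changes were 0.0036 ± 0.027 and -0.014 ± 0.029 (SE; edgeR adjusted p = 0.977 and 0.904), with 95% intervals of 0.964 to 1.04 and 0.9496 to 1.03 for the fold.

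Col4a5, a chain of specialised basement membranes such as those of kidney and muscle, was expressed at 18.0, 18.4 and 19.6 FPKM in RBM25 libraries and 18.4, 17.5 and 19.2 FPKM in control libraries (log2 fold change 0.024 ± 0.036 SE; edgeR adjusted p = 0.859). Its partner chains were nearly silent. Summed reads over 3 libraries were 9 and 6 for Col4a3, 1 and 1 for Col4a4, and 8 and 7 for Col4a6, with RBM25 libraries given before control libraries. These 3 genes were too low to be tested.

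In each pair of neighbouring collagen genes, both members were abundant or both were low. Collagen genes that are not neighbours were not compared in this way, and only 14 of the 39 averaged at least 1 FPKM in control libraries. By the gene order of RefSeq's GRCr8 assembly, which is not the build of the files, 7 pairs of collagen genes were direct protein-coding neighbours. Col4a1 and Col4a2 on chromosome 16 were both abundant, and so were Col3a1 and Col5a2 on chromosome 9. The other 5 pairs were low on both sides, the highest member being Col6a2 at 0.380 FPKM in RBM25 libraries and 0.307 FPKM in control libraries. Col6a5 and Col6a6 have no FPKM value, and had 2 and 0 summed reads in RBM25 libraries and 1 and 1 in control libraries. The pairs are not all independent, since Col6a5 has a collagen neighbour on each side.

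Among the other collagens the fibril-associated and short-chain types led. Col16a1, a fibril-associated collagen with interrupted triple helices, had 18.7, 18.6 and 18.8 FPKM in RBM25 libraries and 17.7, 18.4 and 19.2 FPKM in control libraries, and its log2 fold change, 0.024 ± 0.035 (SE), did not pass (edgeR adjusted p = 0.852). Col12a1, which binds the surface of type I fibrils, had 9.59, 9.85 and 10.2 FPKM in RBM25 libraries and 9.55, 9.72 and 10.2 FPKM in control libraries (log2 fold change 0.0060 ± 0.034 SE; edgeR adjusted p = 0.971). Neither gene separated the groups.

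Type VIII collagen is a short-chain network former of vessel walls and of the basement membrane of the cornea. Its chains lay on opposite sides of 0. Col8a1 had 9.62, 9.55 and 10.36 FPKM in RBM25 libraries and 11.04, 11.01 and 10.17 FPKM in control libraries. RBM25 replicate 3 lay above control replicate 3, so the groups overlapped, and the log2 fold change of -0.13 ± 0.050 (SE) did not pass although it had the smallest p of all collagens (edgeR adjusted p = 0.317). Without RBM25 replicate 3 it was -0.16 (edgeR adjusted p = 0.0961). Col8a2 had 7.59, 7.72 and 7.81 FPKM in RBM25 libraries and 7.01, 7.23 and 7.47 FPKM in control libraries. Here every RBM25 library lay above every control library, yet the log2 fold change, 0.090 ± 0.047 (SE), did not pass (edgeR adjusted p = 0.485). Both genes kept their sign under all 14 alternatives, Col8a1 between -0.16 and -0.10 and Col8a2 between 0.070 and 0.11, and neither passed in any.

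Collagen VI, the beaded filament around many cells including muscle fibres, was almost absent. Col6a1, Col6a2 and Col6a3 had 36, 199 and 99 reads over the 3 RBM25 libraries and 29, 149 and 72 over the 3 control libraries. Col6a2 was at 2.49, 1.93 and 2.00 CPM in RBM25 libraries and 1.61, 1.78 and 1.84 CPM in control libraries, so all RBM25 libraries were higher, yet the log2 fold change, 0.29 ± 0.19 (SE), did not pass (edgeR adjusted p = 0.589). Col18a1, a proteoglycan-like collagen of basement membranes, was at 2.85, 2.87 and 3.26 CPM in RBM25 libraries and 2.39, 2.40 and 2.72 CPM in control libraries. It too did not overlap between the groups and did not pass (log2 fold change 0.25 ± 0.16 SE; edgeR adjusted p = 0.585). Col7a1, of the anchoring fibrils of skin, had 92 reads in RBM25 libraries and 83 in control libraries. For Col20a1, a fibril-associated collagen, the reads were 95 and 100.

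**Figure D3:**
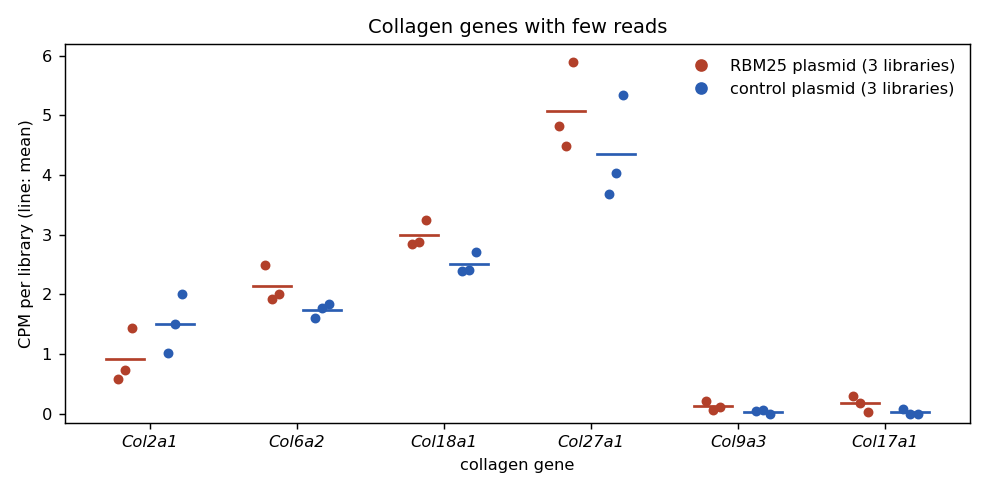
CPM per library of 6 collagen genes with few reads, RBM25 libraries in red to the left of control libraries in blue, with a line at each mean. RBM25 libraries of Col6a2 and Col18a1 lie above their control libraries, those of Col2a1 and Col27a1 overlap them, and Col9a3 and Col17a1 lie near 0; the genes were chosen for display after their values were seen.

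The 15 untested collagen genes had 1 to 40 reads over all 6 libraries. Col17a1, a transmembrane collagen of epithelial hemidesmosomes, had 10, 6 and 1 reads in RBM25 libraries and 2, 0 and 0 in control libraries. Its ratio of summed reads was 7.85 with an exact 95% interval of 1.86 to 70.0, which covers counting error only, and RBM25 replicate 3 lay within the range of the control libraries. Col9a3, a chain of the cartilage collagen IX, had 7, 2 and 3 reads in RBM25 libraries and 1, 2 and 0 in control libraries (ratio 3.69, interval 0.996 to 20.4). Both genes are named here after their values were seen. Summed epithelial markers overlapped between the groups, at 756 to 903 CPM in RBM25 libraries and 780 to 838 CPM in control libraries. Krt7 made up most of that sum, averaging 810 CPM in RBM25 libraries and 786 CPM in control libraries. Krt8 averaged 27.4 and 26.7 CPM. Epcam had 0 and 1 reads, Cdh1 1 and 1, Krt18 0 and 2, and Krt5 10 and 4. Col9a2 and Col6a6 had 0 reads in RBM25 libraries and 2 and 1 in control libraries, and Col28a1 had 1 read in RBM25 libraries and 0 in control libraries. For the remaining 10 genes, which include the type IV chains above, the interval of the ratio included 1.

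Ratios between collagen genes were compared within libraries. Col3a1, whose collagen is homotrimeric, was set against genes of other collagens, so its ratios are not between partner chains. Across groups they say only that 2 genes changed unequally, and their absolute value depends on the gene lengths behind the authors' FPKM. The Col1a1 to Col1a2 ratio was 1.005, 1.008 and 1.006 in RBM25 libraries and 1.017, 1.035 and 1.035 in control libraries. It was lower in all 3 RBM25 libraries, by 0.032 on the log2 scale, so the direction was uniform and the size small. The Col8a1 to Col8a2 ratio was 1.27, 1.24 and 1.33 in RBM25 libraries and 1.57, 1.52 and 1.36 in control libraries, also without overlap, a log2 difference of -0.22. The Col3a1 to Col5a2 ratio was 1.46, 1.44 and 1.50 in RBM25 libraries and 1.41, 1.42 and 1.44 in control libraries (log2 difference 0.043). Two-sided exact permutation tests gave p = 0.1 for each of these 3 ratios, the smallest value that 3 libraries against 3 allow, and 0.233 after Benjamini-Hochberg adjustment over the 7 ratios computed. The Col4a1 to Col4a2 ratio averaged 1.70 ± 0.00545 in RBM25 libraries and 1.68 ± 0.0203 in control libraries (SD, n = 3), and the groups overlapped (exact permutation p = 0.3, adjusted p = 0.42). The ratios of Col5a2 to Col5a1, Col3a1 to Col1a1 and Col4a1 to Col4a5 overlapped as well, with exact permutation p = 0.7, 0.2 and 0.9.

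**Figure D4:**
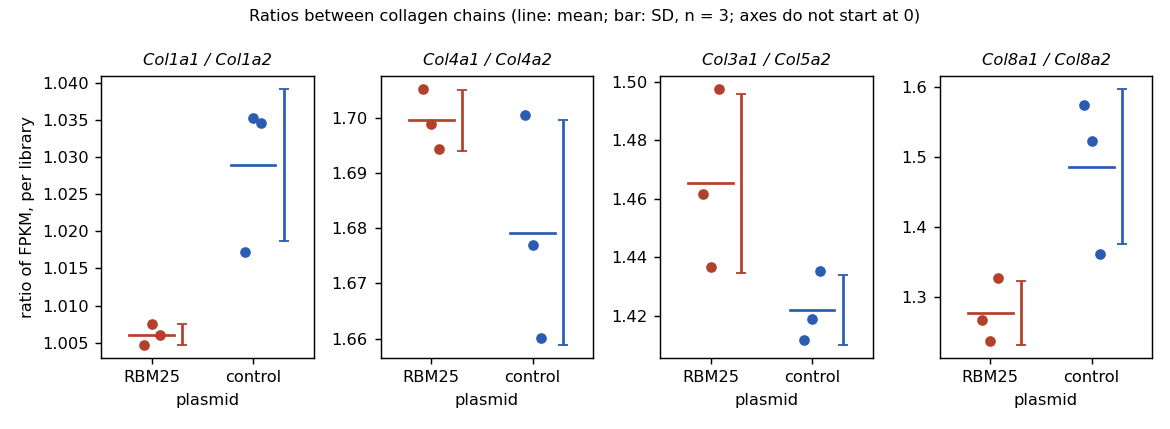
FPKM ratio of 4 pairs of collagen genes in each library, RBM25 libraries left of control libraries, with the mean as a line and the SD (n = 3) as a bar; the axes do not start at 0. The groups do not overlap for Col1a1 over Col1a2, Col3a1 over Col5a2 and Col8a1 over Col8a2, and overlap for Col4a1 over Col4a2.

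Collagen chains need a set of helper proteins, and many but not all of their genes were abundant. Tll2, for example, had 4 summed reads in RBM25 libraries and 0 in control libraries. Hydroxylases modify proline and lysine in the endoplasmic reticulum, chaperones fold and export the helix, proteases cut the propeptides outside the cell, and integrins and discoidin domain receptors bind the finished collagen. Of 56 listed genes of these roles and of matrix partners, 49 were found in the table and 43 could be tested. None was called in either direction, beside 0.404% of all tested genes. At an unadjusted p under 0.05 there were 2, or 4.65%, against 11.2% of all tested genes, and the median log2 fold change was -0.020. Groups did not overlap in CPM for 4 of the 43 (P3h4, Sec24d, Tll1 and Itgb1), or 9.3%, against 16.2% of all tested genes. Negative values were held by 34 of the 43 (79.1%), against 51.2% of all tested genes, but by 24 of 43 without control replicate 3 and by 26 of 44 without RBM25 replicate 1.

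Serpinh1, the collagen-specific chaperone HSP47, was higher per length than any collagen, at 2385, 2413 and 2425 FPKM in RBM25 libraries and 2400, 2456 and 2468 FPKM in control libraries. The groups overlapped, and the log2 fold change, -0.020 ± 0.023 (SE), did not pass (edgeR adjusted p = 0.795). Sparc, a collagen-binding matricellular protein, averaged 1245 ± 55.7 and 1271 ± 34.9 FPKM (SD, n = 3, RBM25 then control libraries). Sec24d, a COPII coat subunit needed for procollagen export, had the smallest p of the list, with 21.2, 20.9 and 21.3 FPKM in RBM25 libraries and 23.6, 22.1 and 23.1 FPKM in control libraries. All RBM25 libraries were lower, but the log2 fold change, -0.12 ± 0.036 (SE), did not pass (edgeR adjusted p = 0.145).

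Among the hydroxylating enzymes, P4hb, the beta subunit of prolyl 4-hydroxylase, averaged 625 ± 21.4 FPKM in RBM25 libraries and 640 ± 10.3 FPKM in control libraries (SD, n = 3). The catalytic subunit P4ha3 averaged 127 ± 1.22 and 126 ± 2.64 FPKM. P3h4, a cofactor of lysine hydroxylation, had the smallest p of these 11 genes and was at 30.1 ± 0.521 and 31.3 ± 0.690 FPKM (log2 fold change -0.058 ± 0.037 SE; edgeR adjusted p = 0.588). Fold changes of the 11 lay between -0.058 and 0.0073 on the log2 scale.

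Propeptide removal was led by Pcolce, the enhancer of the C-proteinase, at 1123 ± 34.5 FPKM in RBM25 libraries and 1151 ± 45.7 FPKM in control libraries, while the proteinase Bmp1 itself was at 21.1 ± 0.965 and 21.3 ± 0.636 FPKM (SD, n = 3). Tll1, a low-level relative of Bmp1, had 0.650, 0.730 and 0.720 FPKM in RBM25 libraries and 0.620, 0.620 and 0.600 FPKM in control libraries. Its groups did not overlap, but the log2 fold change of 0.18 ± 0.075 (SE) did not pass (edgeR adjusted p = 0.348).

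Matrix partners and receptors were also similar between the groups. The proteoglycan Bgn averaged 387 ± 12.95 FPKM in RBM25 libraries and 389 ± 9.22 FPKM in control libraries. Fibronectin (Fn1) averaged 192 ± 9.47 and 196 ± 4.30 FPKM, and the laminin chain Lamc1, with the smallest p of its role, 58.4 ± 1.57 and 60.3 ± 1.95 FPKM (log2 fold change -0.047 ± 0.031 SE; edgeR adjusted p = 0.607). The integrin beta chain Itgb1, shared by the collagen-binding integrins, had 396, 395 and 398 FPKM in RBM25 libraries and 394, 376 and 384 FPKM in control libraries. It did not overlap between the groups, yet the log2 fold change, 0.043 ± 0.027 (SE), did not pass (edgeR adjusted p = 0.574). Its collagen-binding alpha partners were unequal in level. Itga11 averaged 19.2 and 19.7 FPKM, Itga1 2.97 and 2.98 FPKM and Itga10 0.773 and 0.807 FPKM, with Itga2 at 1 and 2 summed reads. The discoidin domain receptor Ddr1 averaged 31.1 ± 0.270 and 31.7 ± 1.16 FPKM (SD, n = 3).

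**Figure D5:**
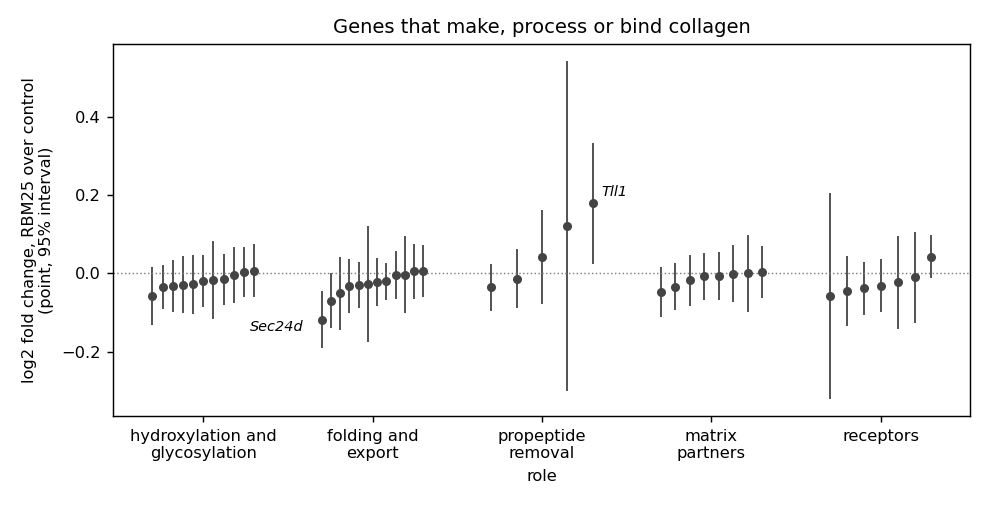
Log2 fold change (RBM25 plasmid over control plasmid) with its 95% interval for the 43 tested genes that make, process or bind collagen, by role. Most points lie just below 0, and the intervals of Sec24d and Tll1 alone leave out 0.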

How the data were processed

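Polyadenylated RNA of 6 H9C2 libraries was sequenced as read pairs after strand-marked library preparation, per the labels' protocols. Per the submitters' processing notes, HISAT2 and DESeq2 were used with the build mRatBN7.2; the sources used here do not give the read counter, annotation or use of strand, so genes with antisense or near-identical partners are uncertain. The deposited read counts are raw whole numbers for 20742 genes. The FPKM values deposited by the authors carry 2 decimals, list 20395 genes and hold 37 of the 39 collagens. Levels between genes were compared on FPKM, fold changes on counts.

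Counts were filtered by filterByExpr (minimum count 10), scaled by TMM and tested with edgeR 4.0.16 in R 4.3.3, group being the only term, with Benjamini-Hochberg adjustment over all genes; the script was tested on simulated counts. SE is the log2 fold change divided by the square root of F. Alternatives used DESeq2 1.42.0, limma 3.58.1, other filters and scalings, and 1 library left out at a time. Per-library values were given for the 4 most abundant collagens and the smallest p of each class, and for pathway genes by abundance and p within a role; other named genes were chosen after their values were seen. Members and lists were chosen with earlier results of these data known. Col10a1, Col15a1, Col21a1, Col22a1, Col23a1 and Col25a1 are not analysed here.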

Additional observations from a re-analysis of the deposited data

How the results depend on the processing

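No collagen was called under 13 of the 14 alternatives, the exception being Col2a1 without RBM25 replicate 3. Collagen and fibrillar calls thus ran from 0 to 1 when 1 library was left out. Of 331 collagen values under other settings, 305 kept direction and side of the threshold and 25 changed sign; the cause was not tested. With a length offset, log2 fold changes turned to -0.021 for Col12a1, -0.011 for Col4a1 and -0.0042 for Col5a2. With 1 library left out, the ranges that crossed 0 were -0.069 to 0.0063 for Col1a1, -0.029 to 0.035 for Col1a2, -0.0089 to 0.022 for Col4a1, -0.035 to 0.0020 for Col4a2, -0.0073 to 0.058 for Col4a5, -0.026 to 0.020 for Col5a1, -0.064 to 0.016 for Col11a1, -0.011 to 0.034 for Col12a1, -7.2e-05 to 0.054 for Col16a1, -0.10 to 0.40 for Col6a1, -0.33 to 0.24 for Col7a1 and -0.11 to 0.38 for Col11a2. The median of the other collagens, 0.058, was 0.14 with DESeq2 and 0.13 with no filter, where low genes enter, and -0.0055 to 0.12 with 1 library left out.

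Calls over all genes numbered 52, against 205 with no filter, 2 and 1 with limma-trend on FPKM at pseudocounts of 0.1 and 1, and 5 to 352 with 1 library left out. Replicate numbers showed no uniform pairing of the libraries. Over all genes same-numbered libraries correlated at 0.054, -0.067 and -0.0059, and RBM25 replicate 2 correlated best with control replicate 3 (0.080). Over the collagens alone same-numbered libraries correlated at 0.35, -0.15 and 0.33. With 3 libraries per group, such correlations cannot settle whether same-numbered libraries were handled together. A replicate block gave 436 calls over all genes, 0 collagens and 1 pathway gene, Sec24d (edgeR adjusted p = 0.0214). Intervals were wide for the 10 tested collagens under 1 FPKM.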

Other observations

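Outside the symbol rule, 9 genes carry the word collagen in their annotation and are not among the listed pathway genes; 4 could be tested and 0 were called by edgeR. Colq, which encodes the collagen-like tail that anchors acetylcholinesterase at neuromuscular junctions, had 95, 92 and 63 reads in RBM25 libraries and 50, 55 and 60 in control libraries. The groups did not overlap, and the log2 fold change of 0.47 ± 0.17 (SE) did not pass (edgeR adjusted p = 0.281); it is named after its values were seen. Gene models annotated as like the type I and type III chains had few reads. LOC120096523, like the alpha 1 chain of type III, had 33 reads in RBM25 libraries and 36 in control libraries, LOC120095931, like the alpha 1 chain of type I, had 21 and 13, and LOC120098939, like the alpha 2 chain of type I, had 7 and 11. Col1a1 itself had 1179284 and 1110862 reads.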
